A study of Rattus norvegicus with 24 samples.

Results

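The 10 genes described here are targets of the glucocorticoid receptor or closely associated with its action: Sgk1 (named Sgk in the files), Tsc22d3, Fkbp5, Map3k6, Ddit4, Pdk4, Zbtb16, Nfkbia, Sult1a1 and Errfi1. They were found by their gene name in the array files, or its current alias, and are covered by 15 of 41012 probes and 10 of 35526 genes on the array. Male Wistar rats were injected intraperitoneally with MK-801, a blocker of the NMDA receptor channel also called dizocilpine, at 0.16 mg/kg (high dose) or 0.08 mg/kg (low dose), or with saline, and brains were removed 40 min later. Of the 9 rats in the study 3 were given saline; their age is 9 weeks in the sample labels and 10 weeks in the series description. Cortex, hippocampus, amygdala, ventral striatum, hypothalamus and midbrain were hybridised on 24 arrays, each carrying treated and saline RNA of 1 region, with 2 arrays of opposite dye for every region and dose. The labels do not say how many rats were pooled in an extract. The p-values over regions therefore describe the spread between regions of what may be the same rats, a spread that may in part be technical, and say nothing of how rats differ.

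Glucocorticoids (corticosterone in the rat) bind the glucocorticoid receptor, which is held in the cytoplasm by chaperones until the steroid releases it. The receptor then moves to the nucleus, binds response elements near its target genes and alters their transcription, in brain as in most other tissues. Such genes are commonly used as a transcript readout of corticosteroid exposure and stress. Several of them also respond to other signals, among them growth factors, energy stress and inflammatory stimuli.

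Between 60.3% and 89.7% of spots per array were well above background in at least 1 channel, 236 to 708 carried an outlier mark, and no array had more than 8 saturated spots. Precision is limited by how few arrays there are. Markers of ventral striatum were higher in saline RNA of that region than in the other 5 by a median of 4.21 log2 units (9 of 9 markers), and those of midbrain by 2.25 (6 of 7). The corresponding medians were 1.49 for the hippocampus (6 of 6) and 1.45 for the cortex (5 of 6). Hypothalamic markers differed by a median of 0.03 in the piece labelled hypothalamus (4 of 8 higher, 2 of 8 highest there), with single markers between -1.11 and 4.51, and no list was used for the amygdala. Single markers, named after their values were seen, also differed between treated and saline RNA of a region at the high dose. In hypothalamus the log2 ratio was -2.96 for Pmch and -0.96 for Th, while hypothalamic markers had a median of -0.05. In midbrain it was 0.77 for Tph2 and 0.67 for Slc6a4, while midbrain markers had a median of 0.09. The part of such differences in the members' values was not tested. Each slide carried a single region, so slide and region cannot be told apart.

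At the high dose 7 of the 9 members that were bright enough to be tested rose and 0 fell. The members' median log2 ratio of treated over saline was 0.24, against -0.00054 for all 24704 genes tested, of which 1.11% were called higher and 0.935% lower (2.04% in either direction). At the low dose, too, 7 of 9 rose and 0 fell, with a median of 0.17, against 0.0019 for all 25000 genes tested, of which 1.21% were called higher and 1.23% lower (2.44% in either direction). All 7 were the same genes at both doses: Sgk1, Map3k6, Tsc22d3, Errfi1, Nfkbia, Ddit4 and Fkbp5. Both doses were set against saline tissue of the same region, so the 2 comparisons are not independent. The members were chosen with earlier results of these data known, so their counts beside all genes are descriptions. Pdk4 was too dim to be tested, and Sult1a1 and Zbtb16 did not pass at either dose. With each array centred on its median in place of loess, 2 members (Sgk1 and Map3k6) were called at the high dose, with 5 at the low dose. In bulk tissue, fewer cells of a type and less RNA per cell cannot be told apart.

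**Figure D1:**
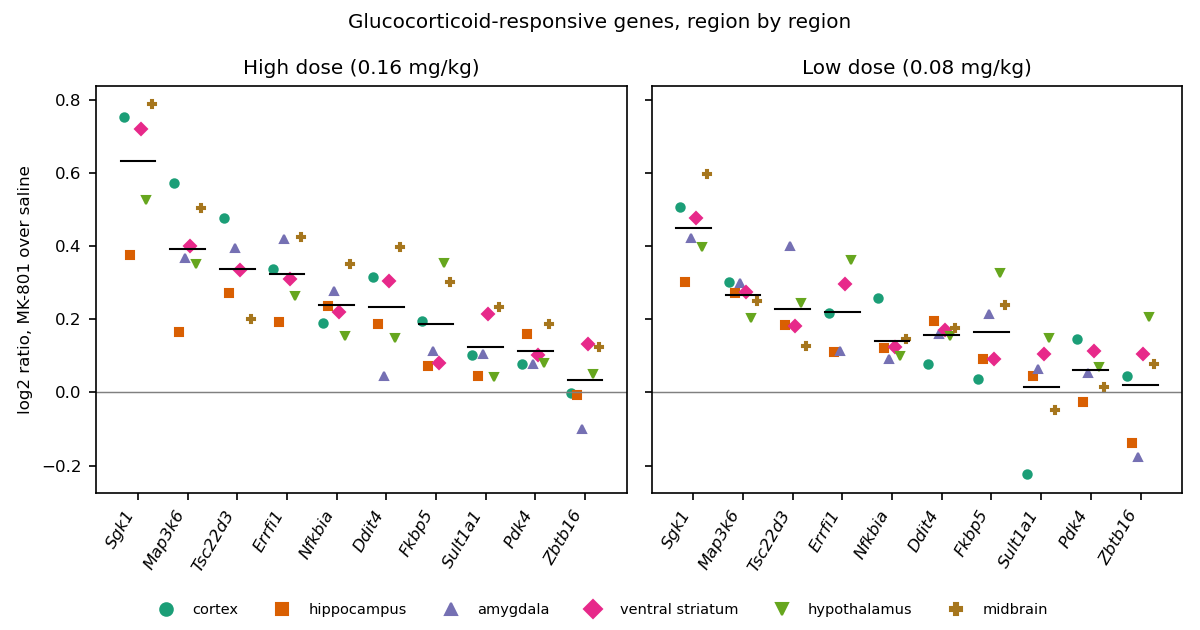
Log2 ratio of MK-801 over saline for the 10 members at the high dose (left panel) and the low dose (right panel). Each point is a region (mean of 2 dye-swapped arrays), the bar is the mean over regions, and regions with an outlier-marked spot are missing. Sgk1 stood highest in both panels, and the 7 members that passed the test lay above 0 in every region measured.

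Sgk1 encodes a serine/threonine kinase that controls ion channels and transporters. At the high dose its log2 ratio was 0.75 in cortex, 0.37 in hippocampus, 0.72 in ventral striatum, 0.53 in hypothalamus and 0.79 in midbrain. The low-dose ratios were 0.51, 0.30, 0.48, 0.40 and 0.60 in these regions, and 0.42 in amygdala. The amygdala at the high dose had a marked spot on an array, and the remaining array gave 0.48. All 11 usable arrays at the high dose and all 12 at the low dose were above 0, the hippocampus being the lowest region at both doses. The mean was 0.63 ± 0.05 at the high dose (SE, n = 5 regions, 1.55-fold, limma adjusted p = 0.000141) and 0.45 ± 0.04 at the low dose (SE, n = 6 regions, 1.37-fold, limma adjusted p = 1.6e-05). Sgk1 ranked 17th by size among all genes tested at the high dose. The Sgk1 call at both doses was kept under each of 15 alternatives (9 other processing settings, scan day as a block among them, and 6 that leave out a region), which ranged from 0.56 to 0.70 at the high dose and from 0.42 to 0.48 at the low dose.

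Tsc22d3 encodes GILZ, a leucine zipper protein that mediates anti-inflammatory actions of glucocorticoids. Its log2 ratio at the high dose was 0.48 in cortex, 0.27 in hippocampus, 0.40 in amygdala, 0.33 in ventral striatum and 0.20 in midbrain. The low-dose ratios were 0.18 in hippocampus, 0.40 in amygdala, 0.18 in ventral striatum, 0.24 in hypothalamus and 0.13 in midbrain. The hypothalamus at the high dose and the cortex at the low dose were left out because of marked spots; their single unmarked arrays gave 0.03 and 0.37. The mean was 0.34 ± 0.04 at the high dose (SE, n = 5, limma adjusted p = 0.000915) and 0.23 ± 0.04 at the low dose (SE, n = 5, limma adjusted p = 0.00812). The Tsc22d3 call was kept under 14 of the 15 alternatives at the high dose and under 13 at the low dose. With median centring in place of loess the high-dose value was 0.24 and no longer passed (limma adjusted p = 0.508). Its other probe, measured in all 6 regions, averaged 0.21 at the high dose, with 0.23 at the low dose, above 0 in 6 of 6 regions at the high dose.

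Fkbp5 encodes a co-chaperone that restrains the glucocorticoid receptor and is itself a receptor target. Its high-dose log2 ratios were 0.19 in cortex, 0.07 in hippocampus, 0.11 in amygdala, 0.08 in ventral striatum, 0.35 in hypothalamus and 0.30 in midbrain. The low-dose ratios were 0.04, 0.09, 0.21, 0.09, 0.33 and 0.24 in the same regions. Values in hypothalamus and midbrain were the highest of the 6 at both doses. The mean was 0.19 ± 0.04 at the high dose (SE, n = 6, limma adjusted p = 0.0306) and 0.17 ± 0.04 at the low dose (SE, n = 6, limma adjusted p = 0.035). Its other 2 probes averaged 0.18 and 0.16 at the high dose and 0.19 and 0.13 at the low dose. Of the calls against saline that of Fkbp5 was the least stable, kept under 6 of the 15 alternatives at each dose. High-dose losses included those without the cortex (0.18, limma adjusted p = 0.104), amygdala (0.20, 0.0579), hypothalamus (0.15, 0.0869) or midbrain (0.16, 0.0848). The low-dose call was lost without the hippocampus (0.18, limma adjusted p = 0.0553), amygdala (0.16, 0.0854), ventral striatum (0.18, 0.065), hypothalamus (0.13, 0.11) or midbrain (0.15, 0.109).

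Where a gene had more than 1 probe, the probes read different stretches of the transcript. The following 60-base probes, printed 5′ to 3′ with rn3 coordinates, are shown because they are separate readings of the members or, for Ddit4, the probe with the largest dye effect. They lie at chrX:128411310-128411369 (Tsc22d3), chr20:6647588-6647647 (Fkbp5), chr6:75733564-75733623 (Nfkbia), chr20:27267323-27267382 (Ddit4) and chr8:51953559-51953618 (Zbtb16), all on the minus strand.
Tsc22d3, second probe: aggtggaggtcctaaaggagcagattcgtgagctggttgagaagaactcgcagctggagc
Fkbp5, probe farthest from the others: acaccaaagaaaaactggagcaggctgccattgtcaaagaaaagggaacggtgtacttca
Nfkbia, probe used in the fit: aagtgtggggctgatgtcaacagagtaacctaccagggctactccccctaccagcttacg
Ddit4, probe used in the fit: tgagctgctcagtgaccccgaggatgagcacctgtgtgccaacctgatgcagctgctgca
Zbtb16, probe used in the fit: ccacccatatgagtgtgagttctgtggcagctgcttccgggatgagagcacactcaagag

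Of the kinase and kinase-feedback members, Map3k6, a MAP kinase kinase kinase, had high-dose log2 ratios of 0.57 in cortex, 0.16 in hippocampus, 0.37 in amygdala, 0.40 in ventral striatum, 0.35 in hypothalamus and 0.50 in midbrain. Its low-dose ratios lay between 0.20 in hypothalamus and 0.30 in cortex, a span of 0.098 over 6 regions that was the narrowest of the tested members. The mean was 0.39 ± 0.04 at the high dose (SE, n = 6, limma adjusted p = 0.00045) and 0.27 ± 0.02 at the low dose (SE, n = 6, limma adjusted p = 7.16e-05). Errfi1 encodes a feedback inhibitor of ERBB receptor signalling. Its ratios ran between 0.19 in hippocampus and 0.43 in midbrain at the high dose, with a median of 0.32. The low-dose ratios ran between 0.11 in hippocampus and 0.36 in hypothalamus, with a median of 0.22 over 5 regions. The Errfi1 mean was 0.32 ± 0.03 at the high dose (SE, n = 6, limma adjusted p = 0.000252) and 0.22 ± 0.04 at the low dose (SE, n = 5, limma adjusted p = 0.013). The Errfi1 call was kept under 14 of the 15 alternatives at the high dose and under 10 at the low dose. Its low-dose losses included those without the ventral striatum (0.20, limma adjusted p = 0.0707) or the hypothalamus (0.18, 0.0561).

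Nfkbia encodes IkB-alpha, which holds NF-kB in the cytoplasm. It ranged between 0.15 in hypothalamus and 0.35 in midbrain at the high dose, with a median of 0.23, and all 12 arrays were above 0. With the low dose 11 of 12 arrays were above 0, and the regions ran between 0.09 in amygdala and 0.26 in cortex, with a median of 0.12. The mean was 0.24 ± 0.03 at the high dose (SE, n = 6, limma adjusted p = 0.000891) and 0.14 ± 0.03 at the low dose (SE, n = 6, limma adjusted p = 0.0194). Its other probe averaged 0.25 at the high dose, with 0.16 at the low dose. The Nfkbia call was kept under 14 of the 15 alternatives at the high dose and under 8 at the low dose. Its low-dose losses included those without the cortex (0.12, limma adjusted p = 0.0753), ventral striatum (0.14, 0.0627) or midbrain (0.14, 0.0569).

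Ddit4 encodes an inhibitor of the growth-regulating kinase complex mTORC1. Its region means ran between 0.04 in amygdala and 0.40 in midbrain at the high dose, with a median of 0.25, and between 0.08 in cortex and 0.20 in hippocampus at the low dose, with a median of 0.17. These means hid a large dye effect: with treated RNA in Cy5 the mean was -0.31 at the high dose, with -0.40 at the low dose, and with treated RNA in Cy3 it was 0.78 and 0.71. Ddit4 was below 0 on every array of the first orientation and above 0 on every array of the second, at both doses. Averaged over orientations, the mean was 0.23 ± 0.04 at the high dose (SE, n = 6, limma adjusted p = 0.0119) and 0.16 ± 0.03 at the low dose (SE, n = 6, limma adjusted p = 0.00499). The Ddit4 call was kept under 10 of the 15 alternatives at the high dose and under all 15 at the low dose. Its high-dose losses included those without the cortex (0.22, limma adjusted p = 0.0559) or the ventral striatum (0.22, 0.0521). Averaging a pair cancels a dye effect that is equal and opposite on its arrays. Any part that does not cancel and is the same in every region is not contained in the SE over regions.

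**Figure D2:**
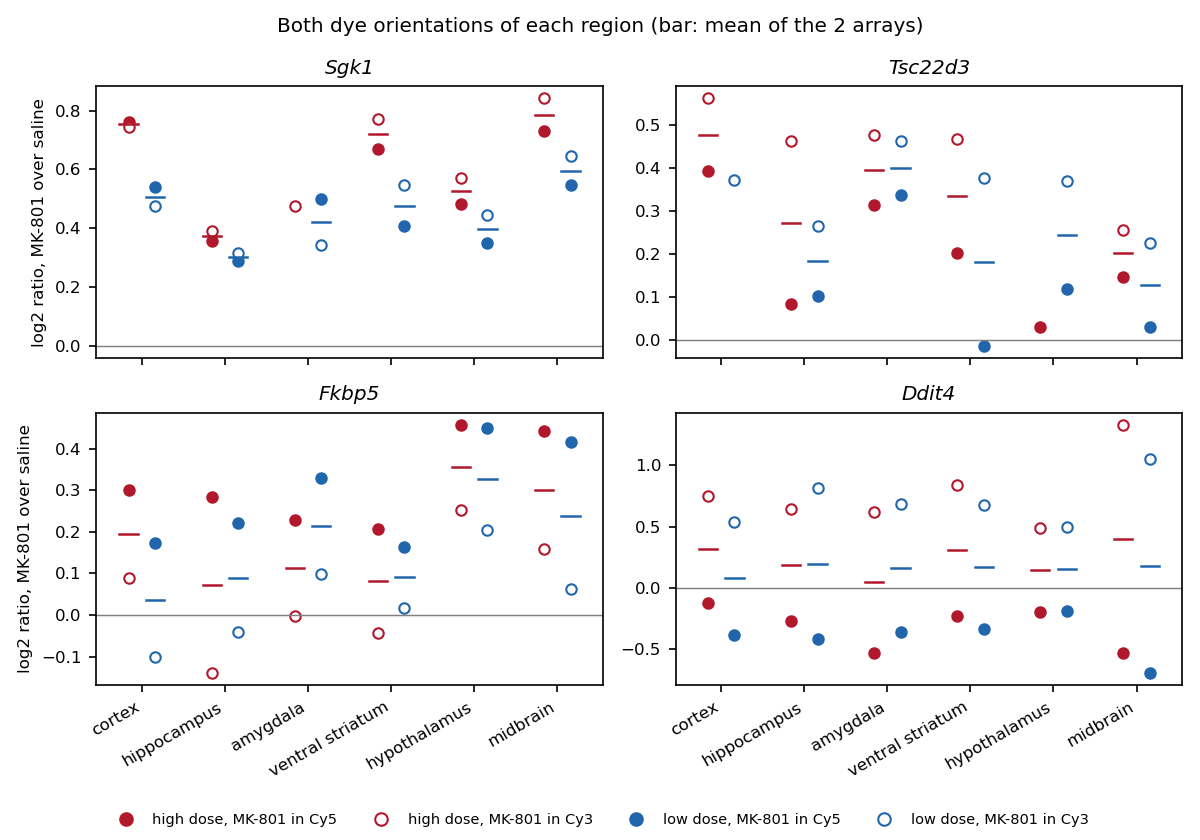
Log2 ratio of MK-801 over saline on each array for Sgk1, Tsc22d3, Fkbp5 and Ddit4, by region, with the high dose left of the low dose. Filled points have treated RNA in Cy5, open points in Cy3, and the bar is the mean of the 2 arrays. The Sgk1 arrays of a region lay closer together than the Ddit4 arrays, which were on opposite sides of 0 in every region.

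Dye orientation also separated other members. The array with treated RNA in Cy5 was the higher of the pair in 6 of 6 regions at both doses for Fkbp5, Map3k6 and Sult1a1. It was the higher in 0 of 5 pairs at either dose for Tsc22d3, and in 0 of 6 pairs at the high dose and 0 of 5 at the low dose for Errfi1. For Fkbp5 the mean with treated RNA in Cy5 was 0.32 at the high dose, with 0.29 at the low dose, while with treated RNA in Cy3 it was 0.05 and 0.04. Sgk1 was nearly alike in both orientations, at 0.60 with treated RNA in Cy5 and 0.66 in Cy3 at the high dose, and at 0.44 and 0.46 at the low dose.

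Sult1a1, a sulfotransferase of phenolic compounds, was above 0 in 6 of 6 regions at the high dose, with a lowest value of 0.04, a median of 0.10 and a highest value of 0.23. Its high-dose mean of 0.12 ± 0.03 did not pass (SE, n = 6, limma adjusted p = 0.0817). Its low-dose ratios ran between -0.22 in cortex and 0.15 in hypothalamus, with a mean of 0.02 ± 0.04 (SE, n = 6, limma adjusted p = 0.932). Zbtb16 encodes the zinc finger repressor PLZF. It ran between -0.10 and 0.13 over regions at the high dose and between -0.18 and 0.21 at the low dose, with means of 0.03 ± 0.03 (SE, n = 6, limma adjusted p = 0.771) and 0.02 ± 0.05 (SE, n = 6, limma adjusted p = 0.912). Its other probe averaged 0.05 at the high dose, with 0.0094 at the low dose. Pdk4, a kinase that switches off pyruvate dehydrogenase, was not well above background in enough regions to be tested. Its ratios lay between 0.08 and 0.19 at the high dose and between -0.03 and 0.15 at the low dose, so they are values near the limit of the array.

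Being above 0 in every region with a value was true of 4.10% of all genes tested at the high dose, with 4.80% at the low dose. Each scan day held 2 regions. Within days 1, 2 and 3, the members called at the high dose were 5 of 9, 3 of 8 and 1 of 8 tested, against 1.16%, 0.766% and 0.375% of all genes. Sgk1 could not be tested on day 2 at the high dose, because its amygdala value was missing. The low-dose counts were 2 of 8, 1 of 8 and 1 of 9, against 0.468%, 0.226% and 0.854% of all genes. With scan day as a block 6 of 9 members were called at the high dose (1.81% of all genes) and 5 of 9 at the low dose (1.70%).

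Direct comparison of the doses within regions found a difference for 1 member. Sgk1 exceeded its low-dose ratio by 0.18 ± 0.04 (SE, n = 5 regions, limma adjusted p = 0.043), in 5 of 5 regions, a pattern seen in 3.47% of all 23796 genes tested. Of these genes 0.866% were called higher with the high dose and 0.618% lower (1.48% in either direction). The Sgk1 difference was 0.25 in cortex, 0.07 in hippocampus, 0.24 in ventral striatum, 0.13 in hypothalamus and 0.19 in midbrain. The call was kept under 4 of the 15 alternatives. Losses included those without the cortex (0.16, limma adjusted p = 0.152), ventral striatum (0.16, 0.188), hypothalamus (0.19, 0.0953) or midbrain (0.17, 0.133). Over the 15 alternatives the limma adjusted p was as high as 0.973.

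The other members had positive mean differences that did not pass: 0.13 ± 0.05 for Map3k6 (SE, limma adjusted p = 0.306), 0.11 ± 0.05 for Sult1a1 (limma adjusted p = 0.475) and 0.10 ± 0.04 for Nfkbia (limma adjusted p = 0.359), over 6 regions each. The difference was 0.08 ± 0.05 for Errfi1, 0.08 ± 0.04 for Tsc22d3 and 0.08 ± 0.05 for Ddit4 (limma adjusted p of 0.608, 0.556 and 0.607). Fkbp5 differed by 0.02 ± 0.04 (limma adjusted p = 0.903) and Zbtb16 by 0.01 ± 0.04 (limma adjusted p = 0.942). A difference of the size seen for Map3k6 or Nfkbia is thus neither shown nor excluded by these arrays. Median centring turned the mean differences of Fkbp5 (-0.03), Tsc22d3 (-0.05) and Zbtb16 (-0.06) below 0.

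**Figure D3:**
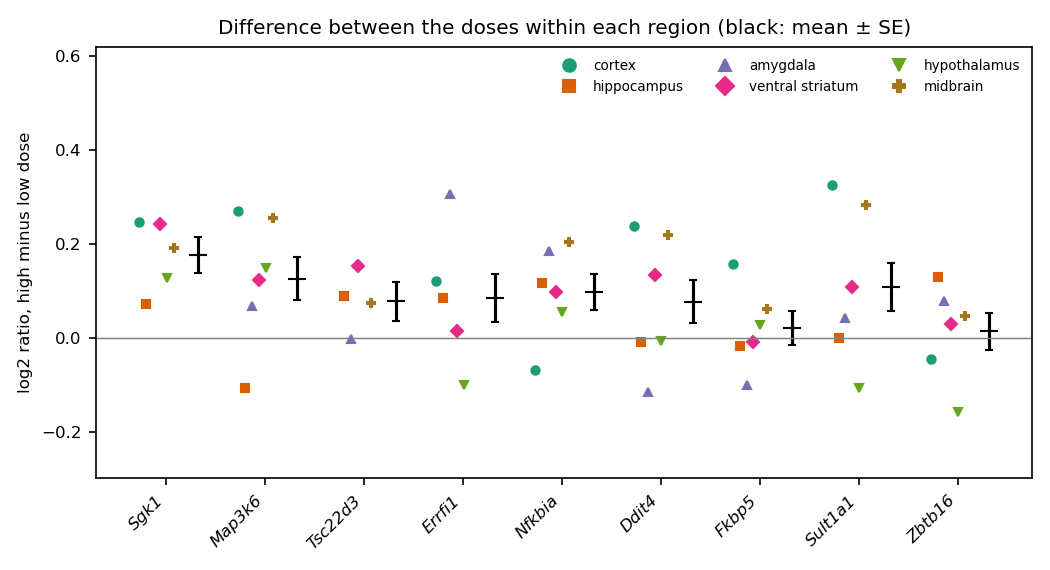
High minus low dose difference of log2 ratios in each region for the 9 tested members, with the mean and SE of the limma fit in black. All 5 Sgk1 values lay above 0, whereas each of the other 8 tested members had at least 1 region below it.

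Regions were compared in a fit of region and dose. Of the 9 tested members 0 passed, against 1.29% of all 23787 genes tested, and 4 of 9 (Sgk1, Fkbp5, Zbtb16 and Tsc22d3) had an unadjusted p under 0.05, against 19.5% of all genes tested. The adjusted p of limma's F test was 0.059 for Sgk1, 0.111 for Fkbp5, 0.122 for Zbtb16, 0.212 for Tsc22d3, 0.42 for Map3k6, 0.491 for Errfi1, 0.536 for Sult1a1, 0.554 for Ddit4 and 0.714 for Nfkbia. Sgk1 passed when the amygdala was left out (limma adjusted p = 0.0431) and when only genes measured in all 6 regions were tested (limma adjusted p = 0.045). On the arrays with treated RNA in Cy3 alone Ddit4 (limma adjusted p = 0.00719), Sgk1 (0.0116) and Zbtb16 (0.0376) passed, with 16.8% of all genes. With a background of this size a count of 0 among 9 genes says little, and the spans over regions are given beside it.

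The span between the highest and the lowest region ran, at the high dose, between 0.19 for Sult1a1 and 0.41 for Sgk1, with a median of 0.28 over the 9 tested members. The median span at the low dose was 0.27. For all genes tested it was 0.19 at both doses. Among genes called higher it was 0.28 for the members and 0.25 for all genes at the high dose, and 0.25 and 0.20 at the low dose. Regions with a marked spot are left out of these spans. Those of Sgk1 and Tsc22d3 at the high dose rest on 5 regions, as do those of Tsc22d3 and Errfi1 at the low dose. For Tsc22d3 the unmarked high-dose array in hypothalamus (0.03) lay below its lowest region (0.20).

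Early-response genes, which are transcribed within minutes of neuronal or growth factor stimulation, were the set for comparison. Of 47 tested, 18 rose and 1 fell at the high dose (median 0.07), while 7 rose and 5 fell at the low dose (median 0.03). The gene that fell at the high dose was the neurotrophin gene Bdnf, named after its values were seen. High-dose ratios exceeded low-dose ratios for 17 of 47 and were below them for 0, against 1 and 0 of the 9 members. Regions differed for 16 of 47. Their median span was 0.36 at the high dose, with 0.33 at the low dose, and 0.81 and 0.83 among those called higher. The 5 with the highest means at the high dose were Ccn1 (2.68 ± 0.38), Apold1 (1.93 ± 0.22), Atf3 (1.46 ± 0.29), Btg2 (1.29 ± 0.16) and Klf4 (1.12 ± 0.13; SE, n = 6 each). Fos averaged 0.55 ± 0.08 at the high dose, with 0.06 ± 0.06 at the low dose, a difference of 0.50 (limma adjusted p = 0.00682). Egr1, at -0.09 at the high dose, with -0.26 at the low dose, passed at the low dose (limma adjusted p = 0.00476). The lowest of the list at the high dose were Egr2 (-0.21) and Ptgs2 (-0.16), neither of which passed there.

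Genes within the same limits of mean were then compared: the early-response genes called higher with a mean between those of the lowest and the highest called member, a choice made after the values were seen. At the high dose 8 early-response genes (Fos, Junb, Nr4a1, Klf6, Gadd45g, Sik1, Zfp36 and Nfkbiz) lay between 0.19 and 0.63, with a median span of 0.60 (0.31 to 0.93), and 4 of the 8 passed the region test. The 7 members called at that dose had spans of 0.20 to 0.41 and 0 passing. Regions with a marked spot are left out, so the spans of Sgk1 and Tsc22d3 rest on 5 regions and that of Nr4a1 on 4. The means were not matched within these limits. Apart from Sgk1 (0.63), the called members had means between 0.19 and 0.39. Fos, Nr4a1, Gadd45g and Sik1 had means between 0.545 and 0.607, with spans of 0.56 to 0.93. At lower means, Zfp36 and Nfkbiz had spans of 0.31 and 0.33, and Klf6 and Junb had 0.46 and 0.63. For the low dose a single early-response gene, Gadd45g, lay between the lowest and the highest called member, with a span of 0.23. Whether the 2 groups differ in span was not tested.

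**Figure D4:**
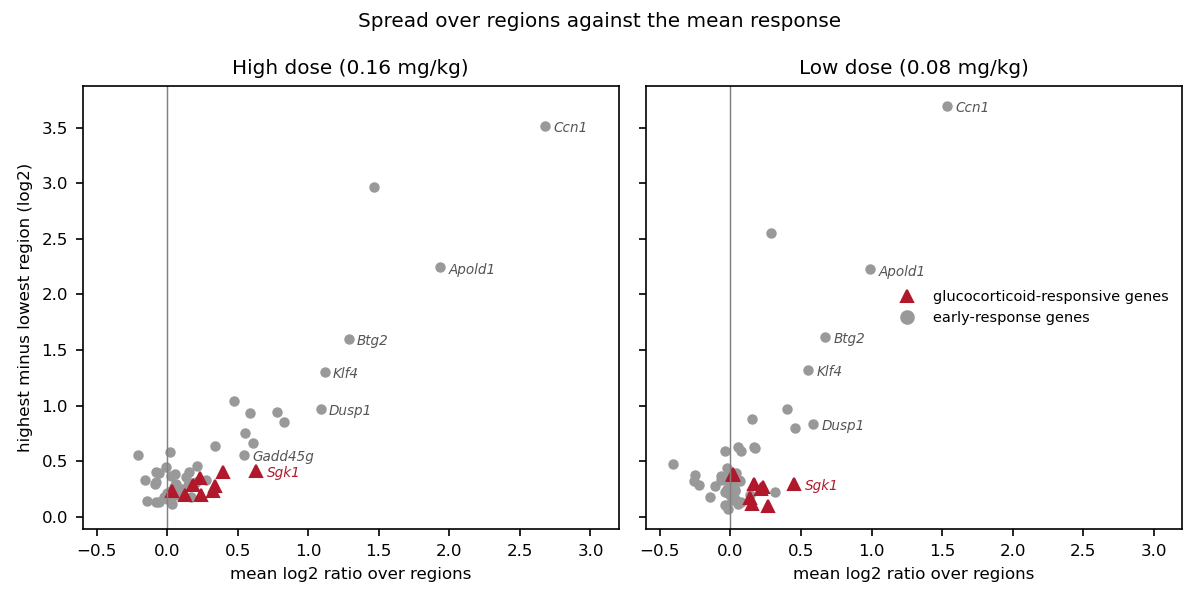
Span between the highest and the lowest region (vertical axis) against the mean log2 ratio over regions (horizontal axis) at the high dose (left panel) and the low dose (right panel). Triangles are the 9 tested members and circles the early-response genes. Over the regions with a value, which were 5 for some members, no member had a span above 0.41. Ccn1 reached 3.51 at the high dose.

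The 2 sets were also ordered differently over regions. At the high dose the members' median was 0.35 in midbrain, 0.32 in cortex, 0.30 in ventral striatum, 0.21 in hypothalamus, 0.19 in amygdala and 0.19 in hippocampus. These medians lack Sgk1 in amygdala and Tsc22d3 in hypothalamus, whose single unmarked arrays gave 0.48 and 0.03. The order of hypothalamus, amygdala and hippocampus therefore does not compare the same genes. The early-response median was 0.25 in cortex, 0.11 in amygdala, between 0.08 and 0.09 in ventral striatum, hippocampus and hypothalamus, and 0.0056 in midbrain. By these high-dose medians the midbrain was the highest region for the members and the lowest for the early-response list. Single members differed: Tsc22d3 was lowest in midbrain at both doses, and Map3k6, Fkbp5 and Zbtb16 were highest elsewhere at the high dose. Other known glucocorticoid targets had their highest high-dose medians in the same 3 regions as the members (0.15 in midbrain, 0.14 in cortex and 0.11 in ventral striatum). Low-dose medians of the members lay between 0.12 in hippocampus and 0.21 in hypothalamus, and the midbrain, at 0.16, was not the highest. They lack Tsc22d3 in cortex and Errfi1 in midbrain. These medians are descriptions, since members share their arrays. Cell type markers moved over the same regions at the high dose. Oligodendrocyte medians were 0.13 in cortex, 0.11 in midbrain, 0.08 in ventral striatum, 0.01 in hippocampus, -0.04 in amygdala and -0.11 in hypothalamus, highest in the same 3 regions as the members. Endothelial medians were also highest in these 3 regions, at 0.15 in midbrain, 0.06 in ventral striatum and 0.04 in cortex, and lowest in hypothalamus (-0.11). Meningeal medians ran between -0.65 in hippocampus and 0.57 in midbrain. Not all lists had this order: in cortex the microglia median was -0.03 and the astrocyte median -0.0020. At the low dose the members were highest in hypothalamus, where the oligodendrocyte median was -0.05 and the endothelial median -0.03. The part of these cell types in the members' regional values was not tested.

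Among 27 other known glucocorticoid targets on the array, the median ratio lay below that of the members at both doses. Members and lists were chosen with earlier results of these data known, so this contrast may reflect that choice. Of 26 tested, 7 rose and 1 fell at the high dose (median 0.11) and 7 rose and 1 fell at the low dose (median 0.04). Dusp1, a phosphatase gene that with Per1 is also in the early-response list, averaged 1.09 ± 0.10 at the high dose, with 0.59 ± 0.07 at the low dose (limma adjusted p of 0.000141 and 0.000841). The transcription factor gene Cebpd averaged 0.62 ± 0.11 at the high dose (limma adjusted p = 0.0129) and 0.32 ± 0.08 at the low dose (limma adjusted p = 0.0594). The clock gene Per1 (0.17, limma adjusted p = 0.0447) and the metallothionein gene Mt1 (0.17, limma adjusted p = 0.019) rose at the high dose, and stood at 0.04 and -0.02 at the low dose without passing. Klf9 rose at both doses (0.15 and 0.15, limma adjusted p of 0.033 and 0.0181). Sesn1 (0.16, limma adjusted p = 0.00767) and Klf15 (0.15, limma adjusted p = 0.0254) rose at the low dose, and had 0.14 each at the high dose without passing. Tgm2, a transglutaminase gene, fell by 0.22 at the high dose (limma adjusted p = 0.0278) and stood at -0.17 at the low dose (limma adjusted p = 0.0893). The high-dose ratio exceeded the low-dose ratio for 3 of 26 (Dusp1, Cebpd and Mt1), and regions differed for 4 of 25 (Dusp1, Cebpd, Cdkn1a and Angptl4).

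Genes of the receptor and its chaperones, coregulators and hormone axis did not pass at either dose (limma, 0 of 18 tested, medians -0.04 and -0.03), while 1 of 18 at the high dose and 5 of 18 at the low dose had an unadjusted p under 0.05, against 11.7% and 13.0% of all genes. Among them the glucocorticoid receptor gene Nr3c1, named after its values were seen, averaged -0.07 ± 0.02 at the high dose, with -0.09 ± 0.03 at the low dose (limma adjusted p of 0.217 and 0.146). The stress peptide gene Crh differed between regions (limma F test adjusted p = 0.023). Its high-dose values ran between -0.52 in midbrain and 0.26 in hypothalamus, above 0 in 3 of 6 regions, with a mean of -0.01. Relatives and pathway neighbours of the members, such as Sgk3, Fkbp1a, Pdk2 and Map3k5, did not pass in limma either: 0 of 20 at the high dose (median -0.0019) and 0 of 21 at the low dose (median 0.01). Of these, 5 of 20 at the high dose and 2 of 21 at the low dose had an unadjusted p under 0.05, the first above and the second below these shares of all genes.

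Cell type markers were read on the same arrays. Blood cell markers moved with dose: 4 of 7 rose and 0 fell at the high dose (median 0.18), 0 rose and 3 fell at the low dose (median -0.09), and 5 of 6 were higher at the high dose. Hbb stood at 0.33 at the high dose, with -0.54 at the low dose. Microglia markers rose in 0 of 9 at the high dose (median 0.01) and in 5 of 9 at the low dose (median 0.14), led by C1qc (0.22) and Laptm5 (0.22). Oligodendrocyte markers rose in 1 of 15 at the high dose (median 0.04) and 2 of 15 at the low dose (median 0.09), with Aspa at 0.31 and 0.26. Endothelial markers rose in 2 of 13 and fell in 1 at both doses (medians 0.0068 and 0.0014), with Abcg2 at 0.69 and 0.55 and Kdr at -0.18 and -0.30. Astrocyte markers rose in 0 and fell in 1 of 9 at the high dose, and rose in 1 and fell in 1 at the low dose (medians -0.02 and 0.02), Sox9 being lower at both (-0.34 and -0.24). Neuron markers (0 of 9) and choroid plexus markers (0 of 6) did not pass in limma at either dose, with an unadjusted p under 0.05 for 1 of 9 neuron markers at each dose and for 0 and 1 of 6 choroid plexus markers. Choroid plexus medians nonetheless varied over regions at the high dose, at 1.09 in amygdala, -0.56 in hippocampus and -1.13 in hypothalamus, with a median span of 1.85. In the region test 1 of 6 choroid plexus markers passed and 6 of 6 had an unadjusted p under 0.05. Meningeal markers fell in 0 of 10 at the high dose (median -0.03) and 1 of 10 at the low dose (median -0.30). The part of these cell types in the members' values was not tested.

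Genes with profiles closest to the members were ranked by root mean square distance of log2 ratios. Over the 11 values of Sgk1 and 10527 genes, the nearest were the efflux transporter gene Abcg2 (0.163), Chmp1b2 (0.186), Rsf1 (0.232), Asb13 (0.262) and Gadd45g (0.263). Abcg2 averaged 0.69 at the high dose, with 0.55 at the low dose, and so was also high at both doses. Over the 12 values of the members' median profile and 10445 genes, the nearest were Hyal2 (0.0692), Tmem185b (0.0872), Nfkbiz (0.0882), Fzd9 (0.0897) and Mfsd2a (0.0899). All these genes lie on the same arrays, so likeness includes whatever the arrays share.

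The members' own level in saline tissue varied by region. Each gene is set only against itself here, in log2 intensity of the saline channel over up to 4 arrays per region. These arrays are 2 dye-swapped pairs carrying saline RNA of the region, and the labels do not say whether they hold the same extracts. Their SD and any overlap include technical spread and dye effects, and cannot be read as the spread between rats. Map3k6 was highest in hypothalamus at 10.64 ± 0.08, against 9.48 ± 0.19 in amygdala, the next region (SD, n = 4 each), and no arrays overlapped. Sult1a1 was highest in amygdala at 11.47 ± 0.21, against 10.34 ± 0.33 in midbrain (SD, n = 4 each), again without overlap. Tsc22d3 was highest in midbrain at 15.11 ± 0.06, against 14.67 ± 0.14 in ventral striatum (SD, n = 4 each), without overlap. Zbtb16 was highest in hippocampus (8.07 ± 0.35) and lowest in ventral striatum (6.99 ± 0.18; SD, n = 4 each).

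Fkbp5 ran between 13.49 ± 0.18 in ventral striatum and 11.57 ± 0.13 in hypothalamus (SD, n = 4 each), and every neighbouring pair of regions in that order overlapped. Sgk1 ran between 12.78 ± 0.13 in midbrain and 11.35 ± 0.53 in cortex (SD, n = 4 each), also with every neighbouring pair overlapping. Errfi1, Nfkbia and Ddit4 spanned 0.66, 0.62 and 0.61 log2 units over regions, and all neighbouring regions overlapped. Pdk4, at 6.23 to 6.73, was well above background on at most 1 saline array in any region. Saline level and ratio were not ordered alike among members. For Fkbp5 the hypothalamus was the region of lowest saline level and highest ratio at both doses, and for Map3k6 the region of highest saline level had the lowest ratio at the low dose. For Sgk1, in contrast, the midbrain was highest in saline level (12.78) and in ratio at both doses (0.79 and 0.60). At the high dose Map3k6 was lowest in hippocampus in both saline level (8.70) and ratio (0.16). A link between level and ratio was not tested.

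**Figure D5:**
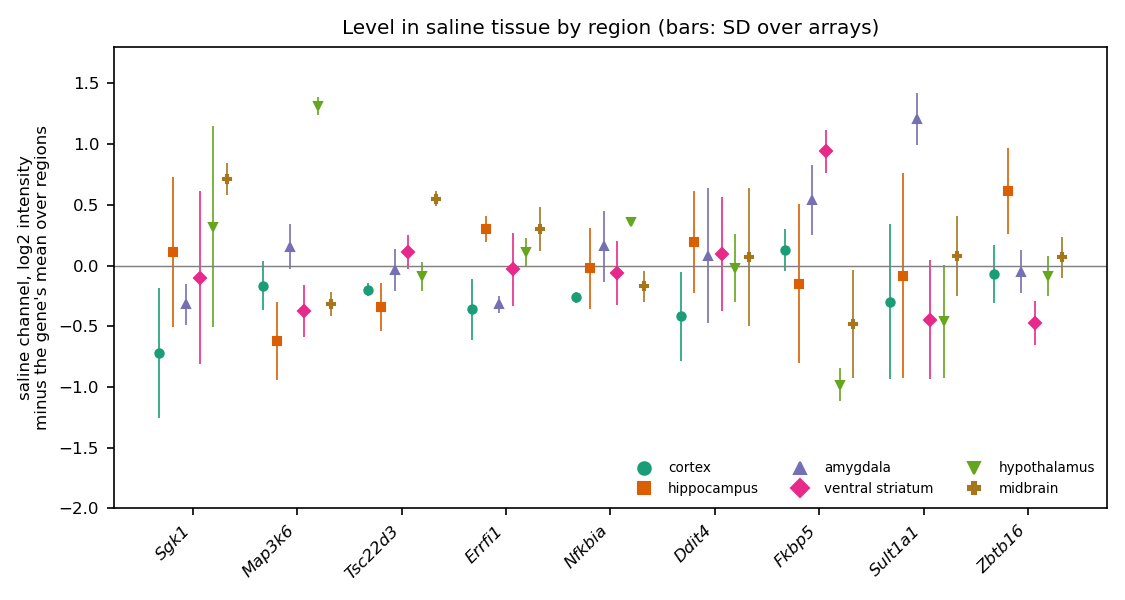
Saline-channel log2 intensity of 9 members by region, minus the gene's own mean over regions, with the SD over arrays. Map3k6 in hypothalamus and Sult1a1 in amygdala stood above the other regions by more than the spread of their arrays.

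Promoter windows from RefSeq (GRCr8, 250 bases before to 50 after the gene start) were matched for 9 of the 10 members by symbol, 13 windows in all; Zbtb16 had none. Both strands were searched for the palindromic glucocorticoid response element (AGAACA, any 3 bases, TGTTCT), either hexamer of it (AGAACA or TGTTCT, which also lie within the whole element), the cAMP response element TGACGTCA and the serum response element. The whole glucocorticoid element was in 0 of 13 member windows and 0.0149% of all 33469 windows, and the cAMP element in 0 of 13 and 1.83%. For the serum response element only 1 exact 10-base sequence was searched, found in 0 of 13 and 0.0329%. Other forms of that element were not searched. A hexamer was found in 1 of 13 member windows and 20.7% of all windows. The match was in Sult1a1, 89 to 84 bases before its start, a member that did not pass the test at either dose. That window (chr1:190706063-190706362, minus strand) is shown with the hexamer in capitals, beside the window of Sgk1 at chr1:24804782-24805081 (minus strand), the member with the highest ratio, which holds none of these motifs. An absent match says only that these letters are not in the window.
Sult1a1: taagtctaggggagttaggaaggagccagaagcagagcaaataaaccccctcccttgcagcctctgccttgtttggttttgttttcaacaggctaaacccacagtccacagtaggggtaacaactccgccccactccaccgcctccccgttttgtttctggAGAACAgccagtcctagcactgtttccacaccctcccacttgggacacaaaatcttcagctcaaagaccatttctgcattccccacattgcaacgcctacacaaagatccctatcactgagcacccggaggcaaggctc
Sgk1: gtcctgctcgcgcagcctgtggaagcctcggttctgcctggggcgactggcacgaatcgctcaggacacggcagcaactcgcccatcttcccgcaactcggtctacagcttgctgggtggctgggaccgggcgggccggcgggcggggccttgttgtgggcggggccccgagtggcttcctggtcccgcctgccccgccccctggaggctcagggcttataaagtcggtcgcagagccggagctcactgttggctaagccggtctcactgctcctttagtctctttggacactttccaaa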

How the data were processed

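Treated and saline RNA of the same region was co-hybridised on 24 two-colour rat whole-genome arrays. Per the file headers, the authors' scanner output (Agilent Feature Extraction 9.5.3.1, also named in the submitters' processing notes) holds the mean spot intensity and local background of each channel. The deposited value table holds log10 ratios. Set against the log10 ratio of treated over saline processed signals, 100% of them differed by under 0.01, so its direction and scale were settled from the values. The sources used here do not state further centring by the authors, and the table's column medians lay between -0.03 and 0.02.

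Intensities were background-corrected (normexp, offset 50) and loess-normalised by limma 3.58.1, giving control spots a weight of 0 (R 4.3.3, with the data.table package in version 1.17.8). Outlier-marked spots were removed, saturated spots kept, and both dye-swapped arrays of a region averaged to 1 value, treated over saline. A region with a marked spot in its pair was treated as missing, and a fit could lack at most 2 regions. Genes had to be well above background in at least 3 of 6 regions in either channel on both arrays. A gene was represented by its brightest probe. Symbols were updated through RefSeq names (GRCr8), which left 15539 genes with a current symbol, and probe coordinates are those of rn3 in the files. Region means were tested against 0 with limma, and regions with its F test in a fit with dose, with Benjamini-Hochberg adjustment over all genes tested and a threshold of 0.05. The fitting step was also tested on simulated data.

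The members, gene lists and tests were chosen with earlier results of these data known. Besides all 10 members, the genes named were the extremes of the early-response list with Fos and Egr1, up to 8 called genes of each related list, the strongest cell type markers, and the genes closest in profile to Sgk1 and to the members' median. Alternatives covered offset, starting signals, centring, dim-probe filter, probe averaging, scan day, single regions and single dye orientations. Where a marked pair keeps its single unmarked array, that alternative was chosen after seeing the data.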

Additional observations from a re-analysis of the deposited data

Results flagged for a closer look

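Of 20 combinations of member and dose checked for a region standing apart from the other 5, 2 were found, both in the cortex at the low dose. Ddit4 had 0.0764 there, against 0.154 in the nearest region, and Nfkbia had 0.258, against 0.146 in the nearest. Each gap was over the critical share of its range (0.654 for Ddit4 and 0.675 for Nfkbia, n = 6 regions). Chance alone marks about 1 in 20 such groups.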

How the results depend on the processing

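Of the single-gene values under alternatives, 584 kept their direction and side of the threshold, 86 lost it, 6 gained it and 23 changed sign; the causes were not tested. The high-dose count of 7 members became 2 with median centring, was 5, 3 and 1 within scan days 1, 2 and 3, 5 to 7 without single regions, and 6 to 8 in a single dye orientation. The low-dose count of 7 became 3 with processed signals and 3 in the deposited table. It was 2, 1 and 1 within scan days, 4 without ventral striatum (4 to 6 over regions left out), and 4 to 5 in a single dye orientation. The dose difference of 1 member became 0 with offset 16, processed signals, median centring, the deposited table, no dim filter, the single unmarked array kept, scan day as a block, within each of 3 scan days and in either dye orientation, and was 0 to 1 without single regions. The region count of 0 became 1 with genes measured in all 6 regions, was 0 to 1 without single regions, and 0 to 3 in a single orientation. Over the whole array, median centring gave 143 called genes against 504 at the high dose, 337 against 610 at the low dose, 106 against 353 between doses and 48 against 308 between regions. With processed signals these counts were 254, 282, 182 and 9, and the deposited values gave 262, 276, 177 and 8. Offset 16 gave 79 and no dim filter 174 genes differing between regions. Leaving out regions gave 302 to 413, 397 to 563, 243 to 309 and 141 to 383, and single orientations, with the dye effect left in, 6704 to 7665, 7459 to 8470, 143 to 270 and 88 to 4041.

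Sign changes at the high dose were Ddit4 over single orientations (-0.31 to 0.78) and Zbtb16 with median centring (-0.016) and over single orientations (-0.027 to 0.093). For the low dose they were Ddit4 (-0.40 to 0.71) and Sult1a1 (-0.076 to 0.11) over single orientations. Sult1a1 was also -0.059 within scan day 1, -0.0029 without ventral striatum and -0.012 without hypothalamus. Zbtb16 was -0.050 within scan day 2, -0.0081 to 0.048 over single orientations and -0.018 to 0.059 over regions left out, lowest without hypothalamus. For the dose difference, Ddit4 (-0.0075), Errfi1 (-0.0080), Sult1a1 (-0.054) and Zbtb16 (-0.014) turned below 0 within scan day 3, Fkbp5 within scan day 2 (-0.020) and Zbtb16 within scan day 1 (-0.0088). Median centring turned Fkbp5 (-0.034), Tsc22d3 (-0.054) and Zbtb16 (-0.059). Without single regions Fkbp5 ran from -0.0078 (without cortex) to 0.044 and Zbtb16 from -0.0099 (without hippocampus) to 0.048, and over single orientations Zbtb16 was as low as -0.019. Signal near background limited Pdk4.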
